A study of Mus musculus with 15 samples.

Results

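The 8 genes described here are markers of ependymal cells and their motile cilia: Foxj1, Rsph1, Tekt1, Cfap126, Dynlrb2, Ccdc153, Tmem212 and Rarres2. They were picked by symbol from the deposited gene tables and are 8 of 45777 features. The rule itself uses no measured value, but earlier results of these data were known when the genes were chosen. RNA-seq was done on the striatum, the forebrain input nucleus of the basal ganglia, of 7-week-old wild type male mice of ICR, an outbred stock. The founders were males treated from 6 weeks of age for 21 days by subcutaneous injection with methamphetamine (METH, a psychostimulant that releases dopamine) at 5 mg/kg or with saline at 10 mL/kg, and were mated with females that received no drug. F1 METH (n = 3) and F1 saline (n = 4) libraries come from sons of METH-treated and saline-treated founders. F2 METH (n = 4) and F2 saline (n = 4) libraries come from sons of F1 males of each lineage and untreated females. No F1 or F2 mouse is labelled as having received the drug itself. Which litter or founder each animal came from is not labelled, and p-values below measure only the spread between these libraries.

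Ependymal cells line the brain ventricles, including the lateral ventricle that borders the striatum, and beat bundles of motile cilia to move cerebrospinal fluid. The transcription factor Foxj1 switches on the motile cilia programme in such multiciliated cells, together with factors of the RFX family. The cilium is built on a microtubule axoneme with dynein motor arms, radial spokes, a central pair and proteins inside the doublet microtubules, and most of the genes below encode such parts. The tissue is bulk striatum although the labels call the cell type neuronal. Spiny projection neuron markers summed to 7010 to 10100 CPM (reads of a gene scaled to a common library total) in F1 METH, 5670 to 8990 in F1 saline, 8810 to 9540 in F2 METH and 7740 to 10200 in F2 saline libraries. Astrocyte markers summed to between 3840 and 6280 CPM over the 15 libraries, so glial RNA is present as well. In bulk RNA, fewer ependymal cells and less RNA per cell cannot be told apart.

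No member passed the test between METH and saline in either generation (edgeR quasi-likelihood test, adjusted p threshold 0.05). In F1, 0 of 8 members were called, beside 0 of 18499 genes tested (0%). In F2, 0 of 8 were called, beside 0 of 18093 genes (0%). At an unadjusted p under 0.05 the count was again 0 of 8 members in F1, where 4.18% of all genes fell under that value, and 0 of 8 in F2, where 4.77% did. Neither DESeq2 nor limma-voom called a member in either generation, although they called 7 and 3 genes in F1 and 9 and 1 in F2 over the whole table. The METH and saline libraries of each member overlapped in both generations, beside 5.5% of all genes in F1 and 2.54% in F2 whose groups did not overlap (METH higher for 3.08% and 1.34%, METH lower for 2.42% and 1.2%). What varied was the level from library to library within a group.

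On the TPM scale, which is scaled by transcript length as well as by library total, the members' mean levels over the 15 libraries of both tables ran from 31.7 for Rsph1 through 12.2 for Rarres2, 7.49 for Foxj1, 5.23 for Ccdc153, 2.90 for Dynlrb2, 2.48 for Tmem212 and 2.01 for Tekt1 to 1.61 for Cfap126. Only Rsph1 stood apart by more than its spread (SD of 9.95 over the 15 libraries), while from Rarres2 downward each gene's mean ± SD overlapped that of the next in order. Dynlrb1, the widely expressed paralog of Dynlrb2, averaged 235.5 TPM. All CPM values below are scaled by TMM (trimmed mean of M values) within each generation, so levels are compared between METH and saline of the same generation.

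**Figure D1:**
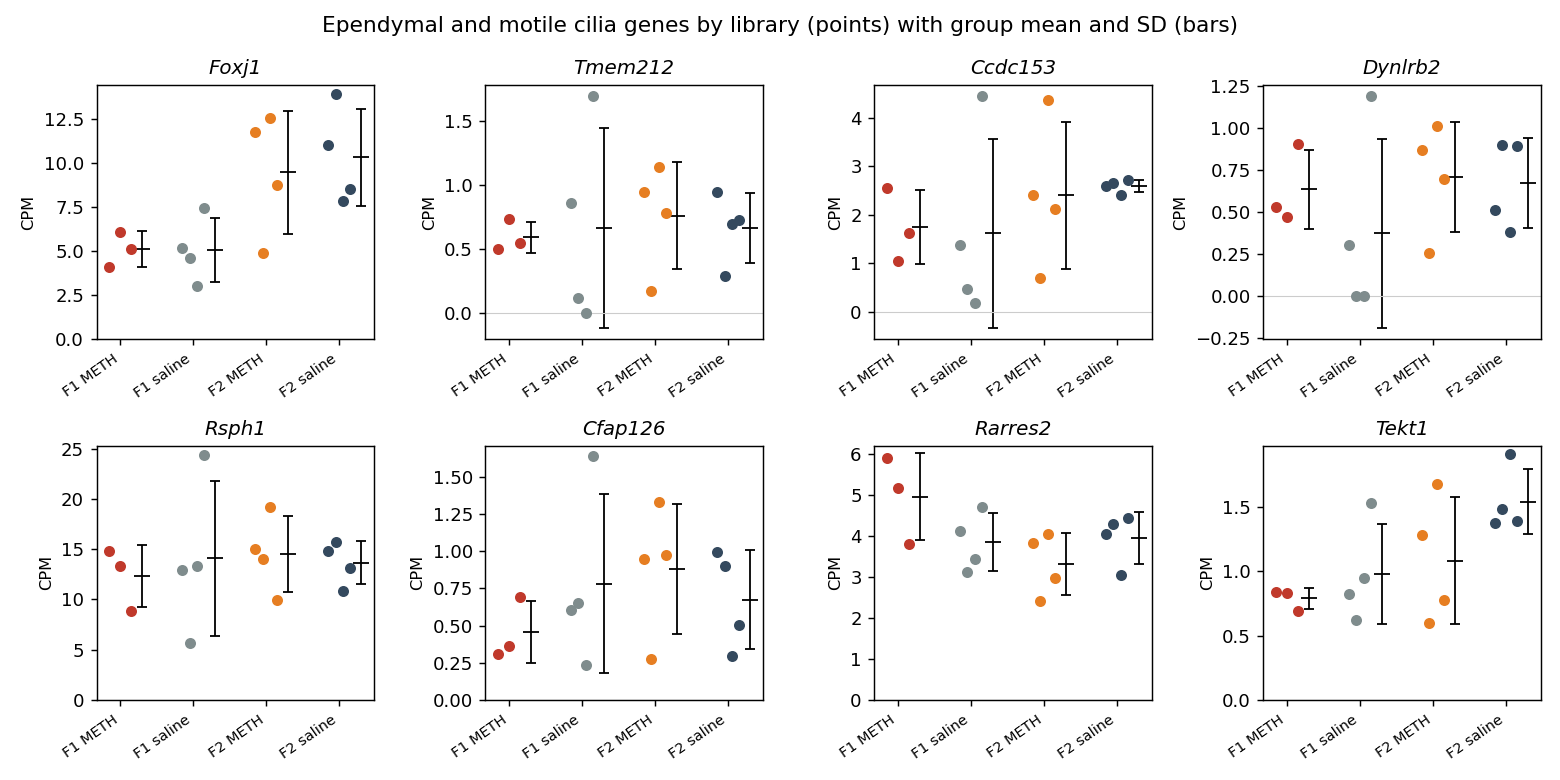
CPM of the 8 genes in every library, METH left of saline in each generation, with points for libraries and the mean and SD of each group. METH and saline overlap in every panel, and the F1 saline points of Ccdc153 reach from 0.184 to 4.43 CPM.

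Promoter windows are shown for members whose window held a letter match to a binding motif of the factors that drive motile cilia genes. The RefSeq promoter table of GRCm38.p6 gave 8 windows for 5 members, each from 250 bases before to 50 bases after a transcript start. Tmem212, Ccdc153 and Dynlrb2 had 1 window each, Tekt1 had 2 and Cfap126 had 3. The motifs searched on both strands were TAAACA, a forkhead core, GTTGCC, a partial RFX site, and the longer X-box form bound by RFX factors, which can overlap GTTGCC. Capitals mark the matched letters in the 5 windows that follow, all read 5′ to 3′ on the strand of the gene.
Tmem212 (chr3:27896319-27896618, minus strand): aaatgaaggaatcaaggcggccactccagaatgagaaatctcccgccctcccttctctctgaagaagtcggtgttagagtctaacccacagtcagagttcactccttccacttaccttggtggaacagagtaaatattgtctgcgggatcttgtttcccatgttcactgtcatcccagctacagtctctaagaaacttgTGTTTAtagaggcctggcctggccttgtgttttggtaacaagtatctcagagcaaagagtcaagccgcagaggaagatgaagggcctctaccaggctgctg
Ccdc153 (chr9:44240427-44240726, plus strand): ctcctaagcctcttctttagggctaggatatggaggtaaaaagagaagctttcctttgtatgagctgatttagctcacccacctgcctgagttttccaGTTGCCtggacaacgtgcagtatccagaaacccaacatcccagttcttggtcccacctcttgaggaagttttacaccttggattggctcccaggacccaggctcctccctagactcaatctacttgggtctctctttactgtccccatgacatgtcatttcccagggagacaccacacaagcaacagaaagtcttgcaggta
Dynlrb2 (chr8:116504765-116505064, plus strand): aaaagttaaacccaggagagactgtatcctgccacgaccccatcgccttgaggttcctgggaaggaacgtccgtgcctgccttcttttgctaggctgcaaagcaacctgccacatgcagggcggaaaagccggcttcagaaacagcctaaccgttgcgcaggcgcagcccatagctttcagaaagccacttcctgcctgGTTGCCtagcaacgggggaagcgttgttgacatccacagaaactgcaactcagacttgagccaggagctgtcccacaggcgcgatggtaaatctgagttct
Cfap126 (chr1:171122795-171123094, plus strand): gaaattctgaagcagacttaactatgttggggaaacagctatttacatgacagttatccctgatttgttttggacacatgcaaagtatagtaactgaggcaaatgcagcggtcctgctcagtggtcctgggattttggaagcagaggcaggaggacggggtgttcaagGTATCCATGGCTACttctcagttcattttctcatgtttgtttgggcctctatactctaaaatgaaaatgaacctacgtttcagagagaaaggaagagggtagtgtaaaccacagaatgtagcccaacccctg
Tekt1 (chr11:72361833-72362132, minus strand): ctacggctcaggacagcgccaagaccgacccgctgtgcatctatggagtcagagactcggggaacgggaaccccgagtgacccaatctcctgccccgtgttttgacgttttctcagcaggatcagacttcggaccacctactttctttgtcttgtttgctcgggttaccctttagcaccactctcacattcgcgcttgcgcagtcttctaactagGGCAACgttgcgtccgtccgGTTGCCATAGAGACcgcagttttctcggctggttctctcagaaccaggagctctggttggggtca

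TAAACA was found in 1 of the 8 windows, that of Tmem212, where its reverse complement TGTTTA begins 51 bases before the start. The same letters were found in 13.4% of the 32851 promoters of the table. GTTGCC was found in 3 of 8 windows, against 12.5% of all promoters: in Ccdc153 at 152 bases before the start, in Dynlrb2 at 51 bases before it and in Tekt1, where it lay on both strands, at 35 and 15 bases before it. The X-box form of this fixed spacing was found in 2 of 8 windows, against 4.62% of all promoters. A window without it, such as that of Dynlrb2, was not searched for other spacings. In Cfap126 it begins 82 bases before the transcript start of the window shown, which lies inside the span of the gene. The Cfap126 window nearest the start of the gene, chr1:171113736-171114035, held no match to any of the motifs. In Tekt1 the X-box form overlaps the GTTGCC that begins 15 bases before the transcript start of the window shown. The 2 Tekt1 windows also lie inside the span of the gene, and neither reaches the end of the span where the gene starts. The shares over 8 windows of 5 genes are a description of letters and not of binding.

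Foxj1, the regulator, lies on chromosome 11 at 116330704 to 116335499 on the minus strand of GRCm38.p6. It had 4.09, 6.12 and 5.13 CPM in F1 METH libraries, against 5.19, 4.60, 3.05 and 7.47 CPM in F1 saline libraries. In F2 it had 11.8, 4.88, 12.6 and 8.77 CPM in METH libraries, against 11.03, 13.9, 7.86 and 8.51 CPM in saline libraries. All 3 F1 METH libraries lay inside the range of the F1 saline libraries, and in F2 the METH library of replicate 2 lay below all others. The means were 5.11 ± 1.01 CPM in F1 METH and 5.08 ± 1.83 CPM in F1 saline (SD, n = 3 and 4). In F2 they were 9.50 ± 3.49 CPM in METH and 10.3 ± 2.75 CPM in saline (SD, n = 4 each). The log2 fold change was 0.011 ± 0.29 (SE) in F1 and -0.12 ± 0.27 in F2, with adjusted p of 0.999 and 0.986 in edgeR. The F1 value turned negative, to -0.24, without the libraries of high Slc17a7 named below.

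Rsph1, a protein of the radial spoke head, was the most abundant member and lies on chromosome 17 at 31255019 to 31277296. It had 14.8, 13.4 and 8.85 CPM in F1 METH libraries, against 12.9, 5.68, 13.3 and 24.4 CPM in F1 saline libraries. The lowest and the highest of these 7 values were both saline libraries. The F2 levels of Rsph1 were 14.99, 14.0, 19.2 and 9.94 CPM in METH libraries, against 14.9, 15.7, 10.9 and 13.1 CPM in saline libraries. Here the lowest and the highest were both METH libraries. Rsph1 had a log2 fold change of -0.19 ± 0.41 (SE) in F1 and 0.092 ± 0.18 in F2, with adjusted p of 0.994 and 0.985 in edgeR. The annotation places an antisense RNA, AC154652.1, on the opposite strand within the span of Rsph1, but the exons share 0 bases.

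Tekt1 encodes a tektin, a filament protein of the doublet microtubules, and lies on chromosome 11 at 72344717 to 72362442. It had 0.843, 0.833 and 0.695 CPM in F1 METH libraries, against 0.828, 0.621, 0.946 and 1.53 CPM in F1 saline libraries. Its F2 levels were 1.29, 0.596, 1.68 and 0.779 CPM in METH libraries, against 1.38, 1.48, 1.91 and 1.40 CPM in saline libraries. In F2, 3 of 4 METH libraries lay below every saline library and replicate 3 of METH lay among them. The F2 means were 1.08 ± 0.49 CPM in METH and 1.54 ± 0.25 CPM in saline (SD, n = 4 each). The log2 fold change was -0.52 ± 0.32 (SE) in F2, with an unadjusted p of 0.128 and an adjusted p of 0.96 in edgeR. In F1 it was -0.31 ± 0.35, with an adjusted p of 0.994 in the same test.

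Cfap126, also called Flattop, acts in mice in the docking and positioning of cilia and lies on chromosome 1 at 171113912 to 171126956. It had 0.312, 0.364 and 0.695 CPM in F1 METH libraries, against 0.607, 0.650, 0.236 and 1.64 CPM in F1 saline libraries. F2 levels of Cfap126 were 0.945, 0.277, 1.33 and 0.974 CPM in METH libraries, against 0.998, 0.901, 0.299 and 0.502 CPM in saline libraries. These levels rest on 9 to 62 reads a library in F1 and 13 to 42 in F2. For Cfap126 the log2 fold change was -0.77 ± 0.62 (SE) in F1 and 0.38 ± 0.49 in F2, with unadjusted p of 0.247 and 0.455 and adjusted p of 0.994 and 0.97 in edgeR.

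Dynlrb2, a light chain of the roadblock type in dynein motors, lies on chromosome 8 at 116505015 to 116515915. It had 0.530, 0.469 and 0.906 CPM in F1 METH libraries, against 0.304, 0, 0 and 1.19 CPM in F1 saline libraries. In replicates 2 and 3 of F1 saline no read was counted, where 3 reads would have been 0.0847 and 0.0788 CPM. Both F2 groups had reads in every library, with 0.866, 0.256, 1.01 and 0.696 CPM in METH libraries, against 0.512, 0.901, 0.378 and 0.892 CPM in saline libraries. In F2 all saline libraries lay within the range of the METH libraries. For Dynlrb2 the log2 fold change was 0.75 ± 1.15 (SE) in F1 and 0.072 ± 0.44 in F2, with adjusted p of 0.994 and 0.996 in edgeR. Dynlrb1 had 70.3 to 78.1 CPM in F1 METH, 75.7 to 80.3 in F1 saline, 45.0 to 56.9 in F2 METH and 55.2 to 57.6 in F2 saline libraries.

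Ccdc153, a coiled-coil protein used as a marker of ependymal cells, lies on chromosome 9 at 44240677 to 44247306 and had the widest range in F1 of the members detected in every library. It had 2.56, 1.04 and 1.63 CPM in F1 METH libraries, against 1.38, 0.480, 0.184 and 4.43 CPM in F1 saline libraries. For F2 the values were 2.42, 0.703, 4.36 and 2.12 CPM in METH libraries, against 2.59, 2.65, 2.41 and 2.71 CPM in saline libraries. The spread was therefore in the saline group in F1 and in the METH group in F2. Within F1 the highest library held 24.1 times the lowest, against 6.92 times for Cfap126 and 4.29 times for Rsph1. Ccdc153 had a log2 fold change of 0.10 ± 0.86 (SE) in F1 and -0.12 ± 0.40 in F2, with adjusted p of 0.994 and 0.989 in edgeR.

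Tmem212, a membrane protein also used as an ependymal marker, lies on chromosome 3 at 27866065 to 27896391. It had 0.499, 0.729 and 0.543 CPM in F1 METH libraries, against 0.856, 0.113, 0 and 1.69 CPM in F1 saline libraries. In F2 it had 0.945, 0.170, 1.14 and 0.779 CPM in METH libraries, against 0.944, 0.291, 0.697 and 0.725 CPM in saline libraries. The F1 METH libraries lay close together inside a wide saline group, whose SD of 0.781 CPM was larger than its mean of 0.664 CPM (n = 4). Tmem212 had a log2 fold change of -0.17 ± 1.04 (SE) in F1 and 0.16 ± 0.51 in F2, with adjusted p of 0.994 and 0.987 in edgeR. The F1 sign turned in other fits, with 1.44 in limma-voom and 0.87 without replicate 4 of saline.

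Rarres2 encodes chemerin, a secreted protein that attracts immune cells and also acts as an adipokine, and is not a component of the cilium. It lies on chromosome 6 at 48569696 to 48572845. It had 5.90, 5.18 and 3.80 CPM in F1 METH libraries, against 4.11, 3.13, 3.44 and 4.72 CPM in F1 saline libraries. The F2 values were 3.83, 2.41, 4.05 and 2.98 CPM in METH libraries, against 4.04, 4.30, 3.05 and 4.43 CPM in saline libraries. METH replicates 1 and 2 lay above all saline libraries in F1, and METH replicates 2 and 4 lay below all of them in F2. Rarres2 had a log2 fold change of 0.36 ± 0.21 (SE) in F1 and -0.26 ± 0.20 in F2, with unadjusted p of 0.121 and 0.229 and adjusted p of 0.994 and 0.96 in edgeR. Of the exonic bases of Rarres2, 892 (33.6%) overlap exons of Lrrc61 on the opposite strand, which had 22.1 to 29.7 CPM. Strand use in the counting is not given in the sources used here, so reads of the shared bases cannot be told apart.

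Chemerin signals through Cmklr1 and Gpr1 and also binds Ccrl2. Cmklr1 had 2.81, 2.84 and 2.96 CPM in F1 METH libraries, against 1.30, 1.13, 2.05 and 2.74 CPM in F1 saline libraries. In F2 it had 2.91, 2.34, 2.75 and 2.12 CPM in METH libraries, against 2.97, 3.84, 3.86 and 2.34 CPM in saline libraries. The F1 groups did not overlap, which was so with METH higher for 3.08% of all genes tested in F1. The log2 fold change of Cmklr1 was 0.67 ± 0.31 (SE) in F1 and -0.36 ± 0.20 in F2, with unadjusted p of 0.0599 and 0.0986 and adjusted p of 0.994 and 0.96 in edgeR. Gpr1 had 10 to 18 reads in F1 METH, 11 to 13 in F1 saline, 5 to 21 in F2 METH and 5 to 10 in F2 saline libraries and was left out of the F2 test by the filter on low counts. Ccrl2 had log2 fold changes of -0.42 ± 0.44 in F1 and 0.066 ± 0.42 in F2 (SE), and neither passed the test.

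**Figure D2:**
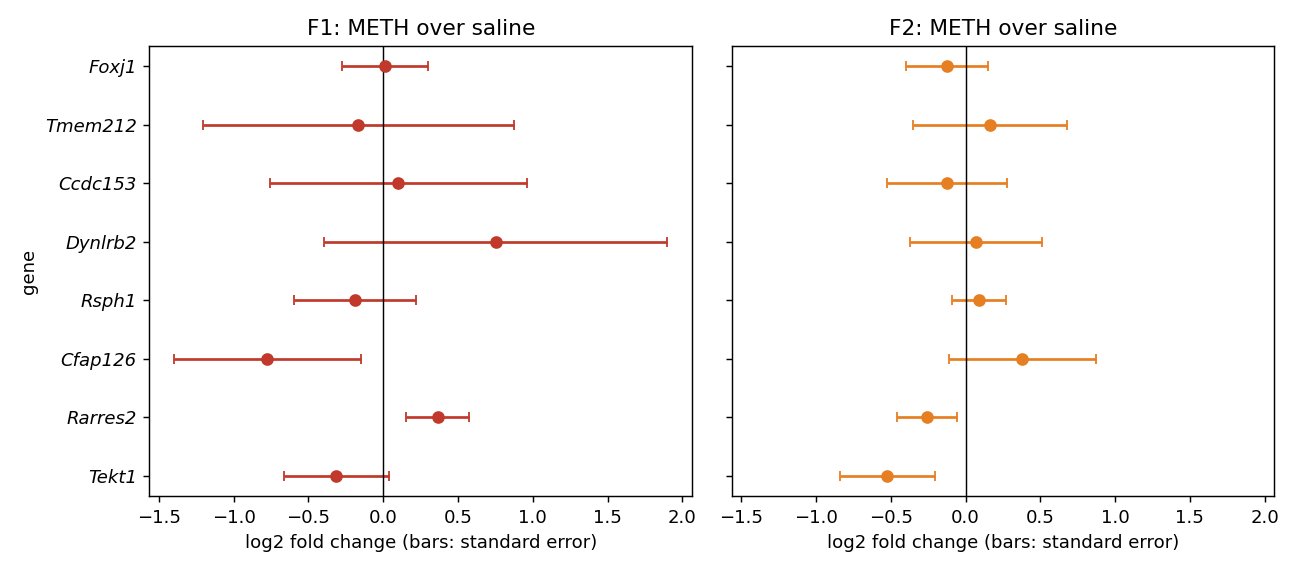
Log2 fold change of METH over saline for each of the 8 genes in F1 (left) and F2 (right), as the edgeR estimate with a bar of 1 standard error on each side. The F1 bars of Dynlrb2, Tmem212 and Ccdc153 are the widest, with standard errors of 1.15, 1.04 and 0.86.

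Over the members, 4 of 8 log2 fold changes were above 0 in F1 and 4 of 8 in F2, beside 49.1% and 49.5% of all genes. Their median was -0.078 in F1 and -0.025 in F2, beside -0.0035 and -0.0020 over all genes. The difference between generations, the F2 effect minus the F1 effect, was tested as an interaction over all 15 libraries. It called 0 of 8 members, beside 1 of 19308 genes (0.00518%). The difference was above 0 for 3 of 8 members, beside 49.9% of all genes. For Rarres2 the difference was -0.63 ± 0.29 (SE) on the log2 scale, with an unadjusted p of 0.0491 and an adjusted p of 1 in edgeR. That was 1 of 8 members at an unadjusted p under 0.05, beside 4.88% of all genes. Cmklr1 had a difference of -1.04 ± 0.37, with an unadjusted p of 0.0127 and an adjusted p of 0.905. Cfap126 had a difference of 1.14 ± 0.84 and an unadjusted p of 0.195, and the other members had unadjusted p of 0.567 or more in the same test.

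The members varied together between libraries. In F1, replicate 4 of saline held the highest level of 7 of 8 members, all but Rarres2. Replicates 3 and 2 of F1 saline held the lowest level of 5 and 4 members, where a tie at 0 counted for both. In F2, replicate 2 of METH held the lowest level of 7 of 8 members and replicate 3 of METH the highest of 5. Averaged over the 8 members, the log2 level relative to the generation's mean was 0.59 in replicate 3 and -1.01 in replicate 2 of F2 METH. It was 1.22 in replicate 4, -0.87 in replicate 2 and -1.21 in replicate 3 of F1 saline. The last value rests largely on Tmem212 (-3.02) and Dynlrb2 (-2.56), with 0 reads each, and Ccdc153 (-2.35), with 7 reads. Rsph1 and Tekt1 were both 0.12 above the generation's mean in that library. The widest departures were thus found in the saline group in F1 and in the METH group in F2.

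**Figure D3:**
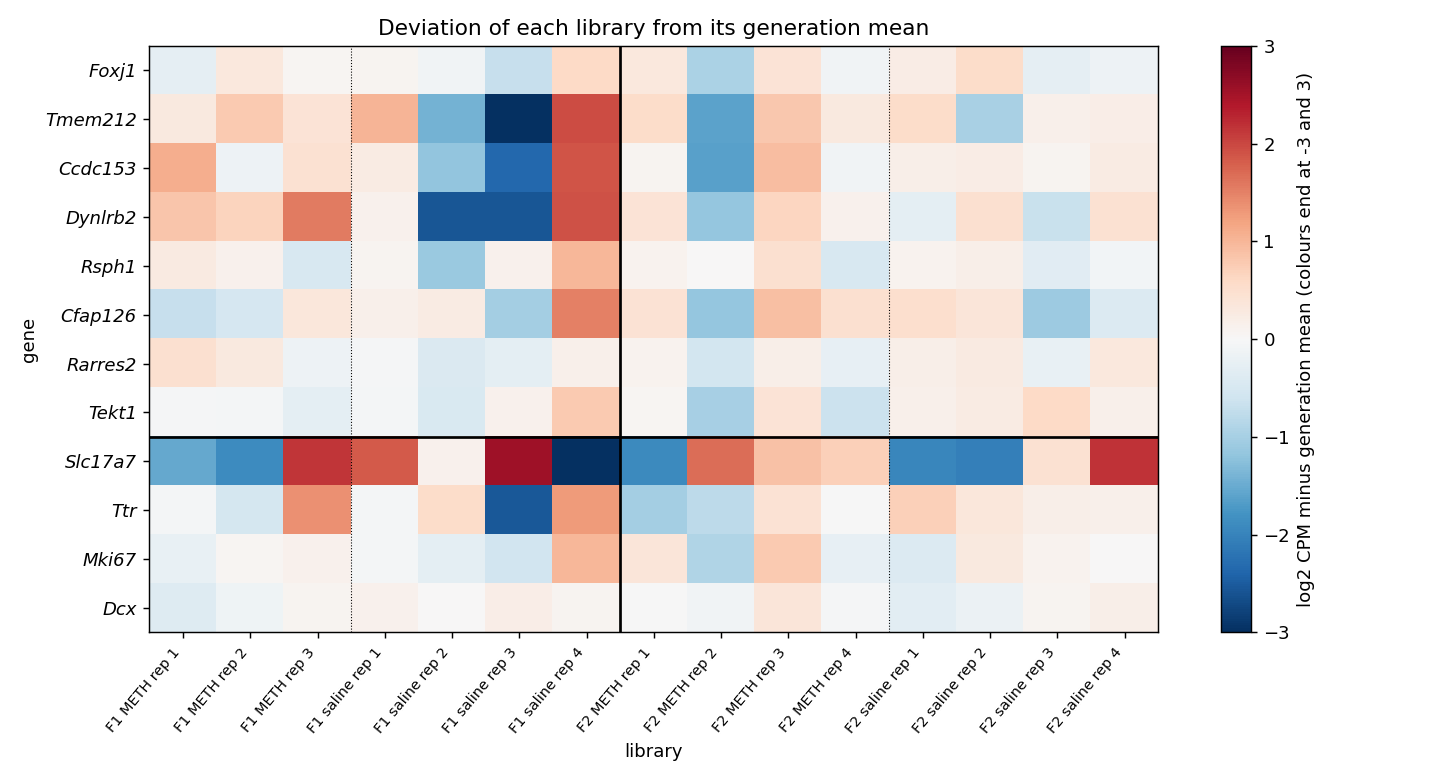
Log2 CPM of the 8 genes and of Slc17a7, Ttr, Mki67 and Dcx in each library, relative to the mean of its generation; columns are F1 METH, F1 saline, F2 METH and F2 saline, and colours end at a difference of 3 in either direction. Replicate 4 of F1 saline has the highest level of 7 of 8 members in F1, and replicate 2 of F2 METH has the lowest level of 7 of 8.

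All 28 pairs of members had a positive Pearson r over the 15 libraries, on log2 CPM centred on each generation's mean. The median was 0.56 and the range 0.28 to 0.89, and 20 pairs were above 0.5. The highest pair was Tmem212 with Ccdc153. Averaged over its 7 partners, r was highest for Ccdc153 at 0.69 and lowest for Rsph1 at 0.46, the most abundant member. The pairs share the same libraries and depths, and the zero counts of Dynlrb2 and Tmem212 in F1 saline lie at the low end of their relations.

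Foxj1 was set against each other member, and against Ttr, Slc17a7 and Dcx, in 10 relations with a two-sided permutation test within generation and adjustment over the 10. The relation of Foxj1 with Cfap126 had r = 0.81 and rho = 0.79 (permutation p = 3e-04 and 0.00092, adjusted p = 0.003 and 0.0092), with r = 0.79 within F1 and 0.84 within F2. With Tmem212 it had r = 0.68 and rho = 0.71 (permutation p = 0.00409 and 0.0039, adjusted p = 0.0102 and 0.0195), with r = 0.88 within F1 and 0.53 within F2. Both measures also passed for Dynlrb2, with r = 0.64 and rho = 0.60 (permutation p = 0.00351 and 0.0159, adjusted p = 0.0102 and 0.0398). For Ccdc153 and Rarres2 only r passed, with r = 0.72 and 0.62 and rho = 0.48 and 0.47 (permutation, adjusted p = 0.0102 and 0.0287 for r, and 0.125 and 0.131 for rho). Tekt1 and Rsph1 had r = 0.57 and 0.36 and rho = 0.41 and 0.53 (permutation, adjusted p = 0.0503 and 0.193 for r, and 0.151 and 0.104 for rho). Dcx, a marker of migrating neuroblasts, had r = 0.020 with Foxj1. Of the neuroblast and dividing cell markers, 8 of 11 had an r above 0.5 with the mean of the 8 members. That is another measure than r with Foxj1, and the value of Dcx on it is not given here.

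The relations that passed rest in part on the libraries farthest out. Without the 2 libraries farthest from the median of Foxj1, replicate 3 of F1 saline and replicate 2 of F2 METH, r was 0.72 for Cfap126, 0.44 for Dynlrb2, 0.37 for Ccdc153, 0.33 for Rarres2 and 0.32 for Tmem212, each lower than over all 15 libraries. Tekt1 had r = 0.43, and for Rsph1 r was higher, at 0.64. Over the 13 libraries left, no relation passed the adjusted permutation test. That with Cfap126 had an adjusted permutation p of 0.0944. Every member's r with Foxj1 stayed above 0.

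**Figure D4:**
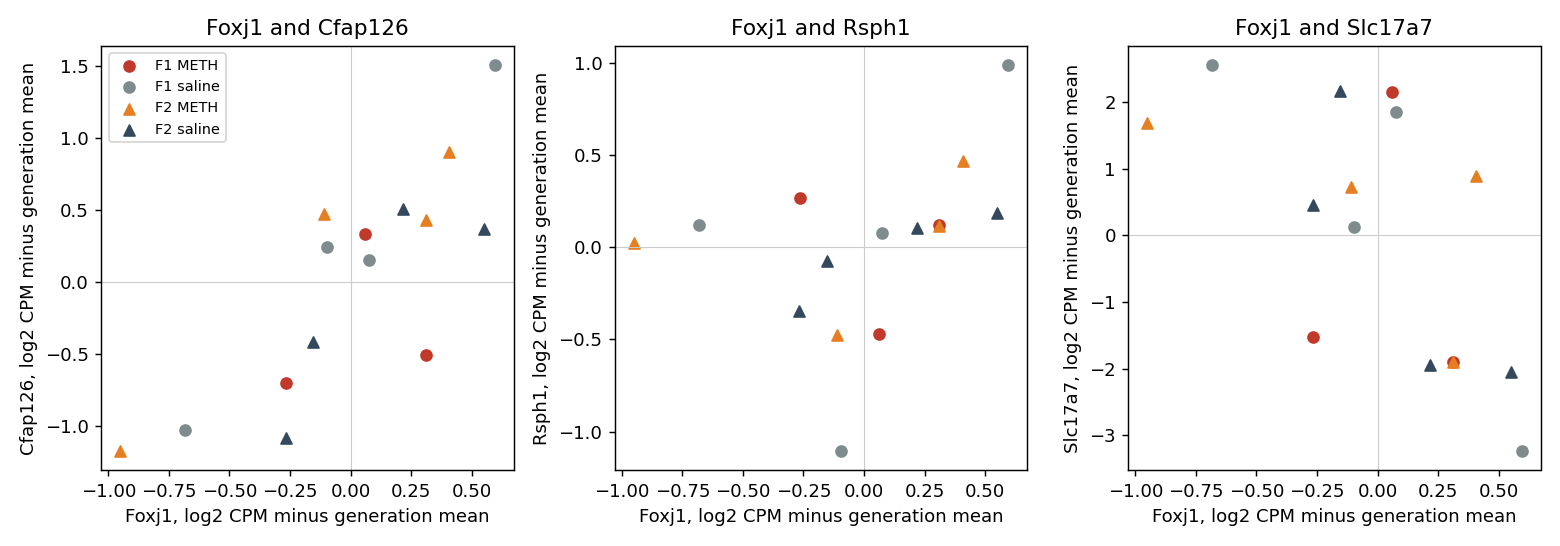
Foxj1 against other members and against Slc17a7, as log2 CPM relative to the generation's mean, with 1 point for each of 15 libraries. Cfap126 follows Foxj1 most closely with r = 0.81, and Slc17a7 runs the other way with r = -0.64.

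The same libraries also differed in RNA of cortical excitatory neurons. Slc17a7, the vesicular glutamate transporter of those neurons, had 31.0, 24.0 and 396 CPM in F1 METH libraries, against 322, 98.0, 526 and 9.47 CPM in F1 saline libraries. In F2 it had 10.8, 130, 75.3 and 67.2 CPM in METH libraries, against 10.52, 9.80, 55.9 and 182 CPM in saline libraries. The F1 saline library with the highest levels of 7 members thus had the lowest Slc17a7, and the F2 METH library with the lowest levels of 7 members had the highest Slc17a7 of its group. Replicate 3 of F1 saline had the highest Slc17a7 of F1, and its members' mean log2 level was -1.21 relative to its generation's mean. Replicates 1 and 2 of F2 saline and replicate 1 of F2 METH had the lowest Slc17a7 of F2. Their members' means were 0.20, 0.17 and 0.26 on the same scale. Some other libraries did not follow this pattern. Replicate 2 of F1 saline had a members' mean of -0.87, while its Slc17a7 of 98.0 CPM was only 0.13 above its generation's mean on the log2 scale. Replicate 3 of F2 METH, with the highest level of 5 members, had 75.3 CPM of Slc17a7, above its generation's mean on the log2 scale. Replicate 3 of F1 METH, replicate 1 of F1 saline and replicate 4 of F2 saline were high in Slc17a7, and their members' mean log2 levels were 0.24, 0.20 and 0.091 above that of their generation. The 10 cortical markers together summed to 207 to 817 CPM in F1 METH, 219 to 1020 in F1 saline, 180 to 387 in F2 METH and 191 to 460 in F2 saline libraries, and none was at 0 in all libraries. Foxj1 against Slc17a7 had r = -0.64 and rho = -0.64 (permutation p = 0.0101 and 0.0152, adjusted p = 0.0202 and 0.0398), with r = -0.64 within F1, -0.68 within F2 and -0.55 without the 2 libraries named above. The part of tissue composition in the members' levels was not tested.

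Leaving out the 5 libraries with Slc17a7 above 100 CPM (replicate 3 of F1 METH, replicates 1 and 3 of F1 saline, replicate 2 of F2 METH and replicate 4 of F2 saline) moved the members' signs without a call. In F1, 1 of 8 members was then higher and 7 lower in METH, with a median log2 fold change of -0.31. That fit compared only replicates 1 and 2 of METH with replicates 2 and 4 of saline. Replicate 4 of saline held the highest F1 level of 7 of 8 members, and replicate 2, at 98.0 CPM of Slc17a7, lay just under the cut. In F2, 6 were higher and 2 lower, with a median of 0.15. Leaving out replicate 4 of F1 saline alone gave 6 higher and 2 lower in F1, with a median of 0.37. Leaving out replicate 2 of F2 METH gave 6 higher and 2 lower in F2 with a median of 0.15, and leaving out replicate 3 of F2 METH gave 1 higher and 7 lower with a median of -0.22. The balance of signs, even with all libraries, thus shifted when single libraries were left out, in both generations.

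Choroid plexus, the other ciliated epithelium of the ventricles, was followed by 16 markers. Their summed level was 147 to 214 CPM in F1 METH, 153 to 178 in F1 saline, 188 to 209 in F2 METH and 164 to 305 in F2 saline libraries, and most of it was Enpp2, which glia also express. Kcnj13, Cldn2 and Kcne2 were at 0 in 6 libraries each, and no marker was at 0 in all. Ttr, its most abundant transcript, had 6.33, 4.56 and 17.1 CPM in F1 METH libraries, against 6.29, 9.74, 1.08 and 16.0 CPM in F1 saline libraries. F2 levels of Ttr were 2.57, 3.05, 7.12 and 5.23 CPM in METH libraries, against 8.68, 6.66, 5.99 and 5.83 CPM in saline libraries. Replicate 4 of F1 saline, high in the members, was also high in Ttr, while replicate 3 of F1 METH had the highest Ttr of F1 and a Foxj1 level of 5.13 CPM, near the mean of its group. Foxj1 against Ttr had r = 0.55 and rho = 0.43 (permutation p = 0.0265 and 0.123, adjusted p = 0.0379 and 0.151), and r = 0.15 without the 2 libraries named above.

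Among 17830 genes that passed the filter in both generations, the 10 whose profile was most like the mean of the 8 members over the 15 libraries were Spef2 (r = 0.93), Cfap43 (0.93), Dnah11 (0.92), Ccdc170 (0.91), Cdhr3 (0.91), Lrrc23 (0.90), Ribc2 (0.90), Fbln7 (0.90), Cdhr4 (0.90) and Ccdc180 (0.89). Of these, 5 are on the lists of cilia and ependymal genes used below and 5 are not. Their r values lie so close together that the order among them carries little.

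Other ependymal markers, such as Cdhr4, followed the members most closely of the 14 lists, with a median r of 0.71 over 19 genes, 11 of them above 0.5. Over all genes the median was 0.010, and 4.83% were above 0.5. Markers of subventricular neuroblasts and dividing cells had a median of 0.57 over 11 genes, highest for the proliferation marker Mki67 at 0.86. Axonemal dynein arms and docking genes had 0.55 over 21 genes, radial spoke and central pair genes 0.46 over 15, and tektins and doublet microtubule proteins 0.43 over 30. Dynein arm assembly factors, which act in the cytoplasm, had 0.16 over 10 genes, and intraflagellar transport genes, which primary cilia of other cells also use, had 0.026 over 22. Cortical excitatory neuron markers had -0.60 over 10 genes, spiny projection neuron markers 0.43 over 9 and astrocyte markers 0.089 over 10. Choroid plexus markers had 0.39 over 9 genes, multiciliated cell regulators 0.36 over 9, chemerin receptors 0.19 over 2 and meningeal fibroblast markers 0.16 over 10. These values describe lists that share their libraries, and no difference between lists was tested.

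**Figure D5:**
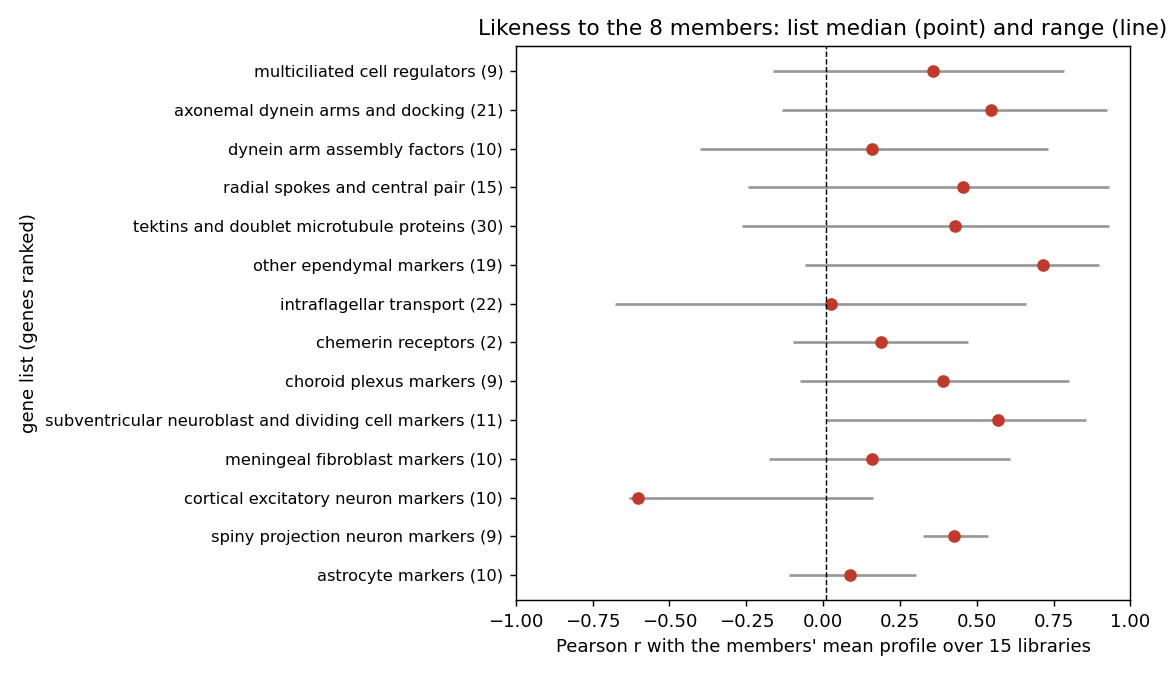
Pearson r of each gene with the mean profile of the 8 members over 15 libraries, as the median (point) and range (line) of each list; the dashed line is the median of all 17830 genes. Other ependymal markers have the highest median, 0.71, and cortical excitatory neuron markers the lowest, -0.60.

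The 6 other lists of cilia and ependymal genes (regulators, dynein arms, assembly factors, radial spokes and central pair, tektins and doublet proteins, and other ependymal markers) held no call between METH and saline. In F1, 53 of 104 tested genes were higher and 51 lower, with 2 lower and 0 higher at an unadjusted p under 0.05, where 49.1% of all genes were higher and 4.18% lay under that p. In F2, 71 of 107 were higher and 36 lower, with 1 higher and 3 lower at that value, where 49.5% of all genes were higher and 4.77% lay under it. The F1 genes under it were the dynein heavy chains Dnah8, with a log2 fold change of -2.62 ± 1.00 (SE), and Dnah9, with -0.76 ± 0.29, both with an adjusted p of 0.994 in edgeR. Those in F2 included Ccno, a regulator of centriole amplification, with 0.67 ± 0.22, and Tekt4 and Capsl, with -0.84 ± 0.32 and -0.95 ± 0.37, all with an adjusted p of 0.96.

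By list, the median log2 fold change in F1 was -0.033 for dynein arms, 0.075 for radial spokes and central pair, 0.036 for tektins and doublet proteins, 0.088 for other ependymal markers and -0.065 for intraflagellar transport. In F2 these medians were 0.12, 0.080, 0.087, -0.020 and 0.040 in the same order. Regulators had medians of -0.0070 in F1 and 0.058 in F2, and assembly factors -0.011 and 0.064. Over all genes the medians were -0.0035 and -0.0020. Of the other cell types, choroid plexus markers had medians of -0.12 in F1 and -0.10 in F2, neuroblast and dividing cell markers -0.11 and 0.11, cortical excitatory neuron markers -0.26 and -0.015, and spiny projection neuron markers 0.17 and 0.066. Astrocyte markers were higher in METH for 9 of 10 genes in F1, with a median of 0.19, and lower for 10 of 10 in F2, with a median of -0.18. At an unadjusted p under 0.05, 2 of 10 astrocyte markers were higher in F1, 4 of 10 were lower in F2, and 7 of 10 had a negative difference between generations, where 4.18%, 4.77% and 4.88% of all genes lay under that p. Meningeal fibroblast markers had medians of 0.35 in F1 and -0.15 in F2, with 1 of 10 higher in F1 and 2 of 10 lower in F2 at that value. Neither list had a gene called by edgeR in either generation or in the difference, and their part in the members' levels was not tested.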

How the data were processed

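RNA-seq of striatum was analysed from 15 libraries, with 1 deposited table per generation. The counts and TPM values were deposited by the authors per gene, per the file headers, and counts are whole numbers. The tools named in the submitters' processing notes are HISAT2 2.1.0, StringTie 2.1.3b, bcl2fastq 2.20.0 and Trimmomatic, with the mm10 build. Whether counting used strand, and how whole counts were obtained, is not stated there. Totals were 32805918 to 38514778 counts in F1 METH, 35044343 to 37659436 in F1 saline, 31563806 to 47199267 in F2 METH and 34622167 to 50573906 in F2 saline libraries. Floors of 3 counts cover counting error only, while the SD and SE values given include the spread between libraries.

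Counts were tested with edgeR 4.0.16 (R 4.3.3): TMM scaling, filterByExpr with a minimum count of 10, the quasi-likelihood test within each generation and an interaction over all 15 libraries, with Benjamini-Hochberg adjustment over all genes tested. The steps were tested on simulated data. DESeq2 1.42.0, limma-voom (limma 3.58.1), limma-trend on log2(TPM + 1) or log2(TPM + 0.1), a filter of mean CPM of at least 1, a replicate block and leaving out libraries were alternatives. Correlations used log2 CPM with a prior count of 2 and 100000 permutations (scipy 1.17.1). Replicates of a group differed beyond counting noise in all 21 pairs. The members and the lists (212 genes, 211 found by symbol) were chosen with earlier results of these data known. Genes named besides the members are Ttr, Slc17a7, Dcx, Dynlrb1, the chemerin receptors, up to 3 genes with the smallest p in each list and generation, the 10 genes most like the members, and, from lists, those of highest r; Lrrc61 and AC154652.1 are named for their overlap and Enpp2, Kcnj13, Cldn2 and Kcne2 to describe the choroid plexus sum. Overlaps were taken from GENCODE M21 and positions and promoters from RefSeq tables of GRCm38.p6. A gene that the naming rule picks is not reported here.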

Additional observations from a re-analysis of the deposited data

How the results depend on the processing

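No member was called in either generation or in the difference under any alternative: the smallest adjusted p of a member was 0.335 (F1), 0.672 (F2) and 0.663 (difference) over edgeR, DESeq2 and limma settings. Of the members' log2 fold changes, 411 kept their direction and 51 turned, and 250 list medians stayed within the spread while 5 moved.

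Over all genes, the count called in F1 was 7 with DESeq2, 3 with limma-voom and 1 with log2(TPM + 1), with log2(TPM + 0.1), without the libraries of Slc17a7 above 100 CPM and in a fit of all 15 libraries, against 0. In F2 it was 9 with DESeq2, 1 with limma-voom and 1 without the libraries of high Slc17a7. The difference gave 5 with DESeq2 and 0, against 1, with limma-voom, a mean CPM of at least 1, both TPM scales, the replicate block and without those libraries. Leaving out 1 library gave counts of 0 to 2 for F1, 0 to 1 for F2 and 0 to 2 for the difference.

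Without the libraries of high Slc17a7, the log2 fold changes that turned were in F1 Foxj1 (-0.24), Ccdc153 (-0.46) and Dynlrb2 (-0.26), in F2 Foxj1 (0.018) and Ccdc153 (0.21), and in the difference Foxj1 (0.26), Ccdc153 (0.68), Dynlrb2 (0.80) and Tekt1 (0.0078). Tmem212 turned in F1 with limma-voom (1.44), log2(TPM + 1) (0.29) and log2(TPM + 0.1) (1.14), in F2 with limma-voom (-0.099) and log2(TPM + 0.1) (-0.0038), and in the difference with these 3 settings (-1.62, -0.23 and -1.15). Dynlrb2 turned in F2 with limma-voom (-0.017).

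Leaving out 1 library gave these ranges. In F1 Foxj1 ran from -0.17 to 0.26, Tmem212 from -0.58 to 0.87, Ccdc153 from -0.28 to 1.35 and Rsph1 from -0.46 to 0.21. In F2 Foxj1 ran from -0.29 to 0.098, Tmem212 from -0.096 to 0.51, Ccdc153 from -0.58 to 0.19, Dynlrb2 from -0.15 to 0.36 and Rsph1 from -0.068 to 0.23. For the difference, Foxj1 ran from -0.39 to 0.074, Tmem212 from -0.72 to 0.74, Ccdc153 from -1.48 to 0.15 and Rsph1 from -0.13 to 0.53. The cause was not tested.

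Replicate numbers do not pair the samples: same-numbered libraries deviated together with r of -0.034 to 0.40 in F1 and -0.062 to 0.039 in F2. With the replicate block 0 genes were called in F1 and 0 in F2 by edgeR, and Tmem212 (1.56 in F1, -1.51 in the difference) and Rsph1 (0.27 in F1, -0.21 in the difference) turned.

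Without the libraries of high Slc17a7, r with Foxj1 was 0.37 for Tmem212, 0.40 for Ccdc153, 0.55 for Dynlrb2, 0.70 for Cfap126, 0.45 for Rarres2, 0.23 for Ttr and -0.63 for Slc17a7, and over these 10 libraries none passed. Without the 2 libraries farthest from the median of Foxj1 it was 0.32, 0.37, 0.44, 0.72, 0.33, 0.15 and -0.55 for the same genes. On log2(TPM + 0.1), Tekt1 passed with r = 0.58. Dynlrb2 had 0 to 45 reads a library, Tmem212 0 to 64 and Cfap126 9 to 62, which limits the precision of their levels.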

Other observations

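The generations stand in separate tables and coincide with them, so levels were not tested between generations. Foxj1 averaged 9.50 ± 3.49 CPM in F2 METH and 10.3 ± 2.75 CPM in F2 saline libraries (SD, n = 4 each), beside 5.11 ± 1.01 CPM in F1 METH (n = 3) and 5.08 ± 1.83 CPM in F1 saline (n = 4). Rsph1 averaged 14.5 ± 3.79 CPM in F2 METH and 13.6 ± 2.13 CPM in F2 saline, beside 12.3 ± 3.10 CPM in F1 METH and 14.1 ± 7.70 CPM in F1 saline, well within the SDs. Tmem212 averaged 0.664 CPM in both saline groups.

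In groups of 4 libraries, no member had a library set apart from the rest by Dixon's test at the 95% level (0 of 24 groups tested, where chance gives about 1 in 20).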
